A study of Homo sapiens with 47 samples.

Results

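The 10 genes described here are the fibroblast growth factor (FGF) genes *FGF2*, *FGF3*, *FGF4*, *FGF7*, *FGF8*, *FGF9*, *FGF13*, *FGF17*, *FGF18* and *FGF19*, chosen by name out of 58051 genes listed for each library, and all 10 were found by their Ensembl identifiers. They were followed in 47 polyA RNA-seq libraries of WA09 (H9) cells, an established line of human embryonic stem cells (hESCs), so that all values concern 1 line. Of these libraries, 35 were whole cultures of 3 independent differentiations (r1 to r3) at 12 time points, with 2 libraries at P9. The time points were undifferentiated hESCs in mTESR1 medium (t0), neuromesodermal progenitor (NMP)-like cells after 36 h in N2B27 medium without vitamin A, and the cultures grown from them at passages P1 to P10. After t0, these cells were kept with the WNT activator CHIR-99021, recombinant human FGF2, the retinoic acid receptor inverse agonist AGN193109 and the ROCK inhibitor Y-27632, and FGF2 protein added to a medium leaves no RNA in the libraries. The other 12 libraries were epithelial (EPI) and mesenchymal (MES) fractions of P5 and P8, taken in each differentiation by selective detachment with TrypLE, and such fractions are enriched rather than pure. Whether the differentiations began from separate thaws or stocks is not given in the sources used here, so p-values concern only these 3 runs. The main fit removes the average offset between the runs, and its p-values measure the spread that is left. The comparisons ask which of the 10 genes follow each other from the hESC state to late passages, and which fraction carries them.

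FGF ligands act on neighbouring cells through tyrosine kinase receptors, with heparan sulphate as a cofactor, and one of the main pathways they switch on is the RAS-MAPK cascade. In the caudal end of the vertebrate embryo they keep progenitors of the trunk and tail in a growing, undifferentiated state, while retinoic acid from the somites acts against them. *FGF8* and *FGF17* belong to one subfamily with *FGF18*, and *FGF3* and *FGF4* are further ligands of the primitive streak and tail bud. *FGF2* lacks a classical signal peptide and is the factor added to hESC media. *FGF9* is a secreted ligand of another subfamily, *FGF7* (keratinocyte growth factor) is made by mesenchyme and acts on epithelia, and *FGF19* is best known as an endocrine bile acid signal that is also made by embryonic neural tissue. *FGF13* is a member by sequence only, since its protein stays inside the cell and binds sodium channels and microtubules instead of FGF receptors.

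In GENCODE 29 on GRCh38, the annotation used here for names and positions, the 10 genes are protein-coding and lie on 8 chromosomes. *FGF19* (chr11:69698232-69704642), *FGF4* (chr11:69771016-69775403) and *FGF3* (chr11:69809969-69819024) lie next to each other on the minus strand of chromosome 11. The others are *FGF2* (chr4:122826708-122898236, plus strand), *FGF18* (chr5:171419656-171457623, plus), *FGF17* (chr8:22042398-22048809, plus), *FGF8* (chr10:101770130-101780369, minus), *FGF9* (chr13:21671383-21704498, plus), *FGF7* (chr15:49423096-49488775, plus) and *FGF13* (chrX:138614731-139222777, minus).

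Upstream sequence from RefSeq on GRCh38.p14 was at hand for 5 members, *FGF2*, *FGF3*, *FGF7*, *FGF13* and *FGF18*. *FGF3* is shown for the genes of the early peak, *FGF18* for a gene whose course is unlike those of the other members and *FGF7* for the last passages.

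The lines give bases upstream of the RefSeq start, 5′ to 3′ on the gene's strand, with matches to the searched motifs in capitals (*FGF3*, chr11:69819417-69819666, 250 bases; *FGF18*, chr5:171419397-171419646, 250 bases; *FGF7*, chr15:49422992-49423095, the 104 bases of its window that lie before the first annotated transcript).
FGF3: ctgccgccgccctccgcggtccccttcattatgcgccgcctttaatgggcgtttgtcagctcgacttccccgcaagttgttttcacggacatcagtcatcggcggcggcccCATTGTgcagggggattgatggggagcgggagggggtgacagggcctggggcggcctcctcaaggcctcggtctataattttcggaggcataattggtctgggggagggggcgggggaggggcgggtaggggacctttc
FGF18: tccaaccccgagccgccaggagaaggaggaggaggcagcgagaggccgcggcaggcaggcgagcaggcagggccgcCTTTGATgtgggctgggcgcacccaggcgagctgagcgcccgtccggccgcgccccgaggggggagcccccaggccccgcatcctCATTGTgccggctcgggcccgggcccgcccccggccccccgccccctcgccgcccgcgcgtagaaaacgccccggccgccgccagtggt
FGF7: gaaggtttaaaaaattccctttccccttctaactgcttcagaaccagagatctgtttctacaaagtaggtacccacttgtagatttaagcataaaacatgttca

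Motifs of 6 factor families or elements were searched on both strands, chosen after the sequences had been seen. The TCF/LEF motif of WNT signalling was CTTTGAA, in which the last base could also be T. The SOX motif was ACAATG, whose other strand appears as CATTGT in the lines above. The T-box motif was TCACACC. The CDX motif was TTTATNG, where N is any base. The AP-1 motif was TGACTCA and its reverse complement. The TATA motif was TATAAA. No match in a member overlapped another. In the 250 bases before the start, *FGF3* held the SOX letters 139 to 134 bases upstream, and *FGF18* held them 89 to 84 bases upstream together with the TCF/LEF letters 174 to 168 bases upstream. Among 35116 RefSeq upstream windows of that length, 9.29% held the SOX letters and 5.94% the TCF/LEF letters. *FGF7* held a CDX match (8.93% of all windows) nearer to its start than the bases shown, *FGF13* held the TATA letters (10.7%) at 1 of its 2 starts, and *FGF2* held none of the motifs. No searched window of a member held the T-box letters (2.76%) or the AP-1 letters (4.2%). The windows differed in base composition, with 78.8% G or C in *FGF18*, 75.2% in *FGF2*, 64.4% in *FGF3* and 38.4% in *FGF7*, against a median of 58% over all windows. A match in letters is a description of the sequence and not a measured binding site.

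The libraries held 13029462 to 64082803 expected counts in all (median 47292188). Values are normalized counts (rounded counts scaled by edgeR's TMM factors over all 47 libraries) where 1 gene is followed, and TPM as deposited, which allows for transcript length, where genes are set against each other. A depth floor of 3 counts corresponded to between 2.08 and 9.55 normalized counts, depending on the library. All 10 genes were above it in some library, while *FGF3* stood at 3 counts or fewer in 24 libraries, *FGF4* in 22, *FGF19* in 5, *FGF8* in 4 and *FGF7* in 2. Reads of 75 bases could be shared between genes for a few members. Of the 75-base runs of *FGF7* transcripts, 5.75% also occur in other transcripts, 5 *FGF7* pseudogenes among them, and 9.8% of the runs of *FGF2* are complementary to *NUDT6*, a gene that overlaps it on the other strand. For *FGF13*, 0.452% are complementary to *FGF13-AS1*. The strand setting of the counting is not given in the sources used here, so reads of *FGF2* and *FGF13* cannot be told apart from those of their opposite partners in these stretches. *NUDT6* stood between 4.83 and 16.5 TPM and *FGF13-AS1* between 0 and 15.0 TPM, the latter in 36h.r1.

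Some libraries stood apart from others of their time point in markers, among them those of r1 at P1, P2, P3 and P10. At t0 the 5 hESC markers summed to between 118959 and 125066 normalized counts. The 6 pre-neural and neural markers already summed to between 11722 and 12752 at t0, so a high sum of this list at 36 h does not mark neural cells. At 36 h the 4 presomitic mesoderm markers (*TBX6*, *MSGN1*, *MESP2*, *RIPPLY2*) summed to 291, 3164 and 16241 (r1 to r3), and the 6 pre-neural and neural markers to 13560, 1476 and 387 in the same order. In P1.r1 the hESC markers were still at 45898, against 4767 in P1.r2 and 4655 in P1.r3, and the presomitic list was at 183 against 11352 and 15197. In P2.r1 the presomitic list then reached 9116, against 1945 in P2.r2 and 986 in P2.r3, and in P3.r1 it was at 9855 against 282 and 687. The 6 NMP markers summed to 75507 in P1.r1, against 19392 in P1.r2 and 6944 in P1.r3. They stood at 43204 in P2.r1, against 6688 in P2.r2 and 3352 in P2.r3. At P10 the 6 NMP markers stood at 9339 in P10.r1 against 203 and 166, and the 8 neural crest markers at 10670 against 41570 and 51139. Several FGF values given below differ in the same libraries, and the part of these cells in them was not tested. In bulk RNA, fewer cells of a type and less RNA per cell cannot be told apart.

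The highest levels of the genes lay at different stages, with *FGF2* at t0, *FGF13* at 36 h and *FGF7* in the last passages. An early peak between 36 h and P2 was dominated by *FGF17*, with *FGF8*, *FGF4*, *FGF3* and *FGF19*, and *FGF9* was high both early and late. This early peak did not always follow that of *FGF13*. In r3 *FGF4*, *FGF8*, *FGF17* and *FGF19* were highest at 36 h too, and in r2 *FGF4* and *FGF19* were. *FGF18* was highest at P3, P9 and P1 in r1 to r3. On the TPM scale, the summed level of the 10 genes was 72.7 to 81.4 at t0 and reached its highest value in each differentiation at a different time point, with 703.7 in P2.r1, 279.9 in P1.r2 and 439.9 in 36h.r3. The lowest sum was 19.95 TPM, in the mesenchymal fraction of P5.r3. *FGF17* had the highest TPM of the 10 in 18 of the 35 whole cultures, *FGF13* in 9, *FGF7* in 3, *FGF2* and *FGF9* in 2 each and *FGF18* in 1. At its peak *FGF17* made up 43.3% of the sum in P2.r1, 55.2% in P1.r2 and 74.5% in 36h.r3. At P10 the leading gene was *FGF7* in r2 (64.0% of the sum) and r3 (57.2%) but *FGF17* in r1 (34.4%). The 10 genes held between 47.2% and 97.1% of the summed TPM of all 22 FGF genes, with a median of 79.6%.

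**Figure D1:**
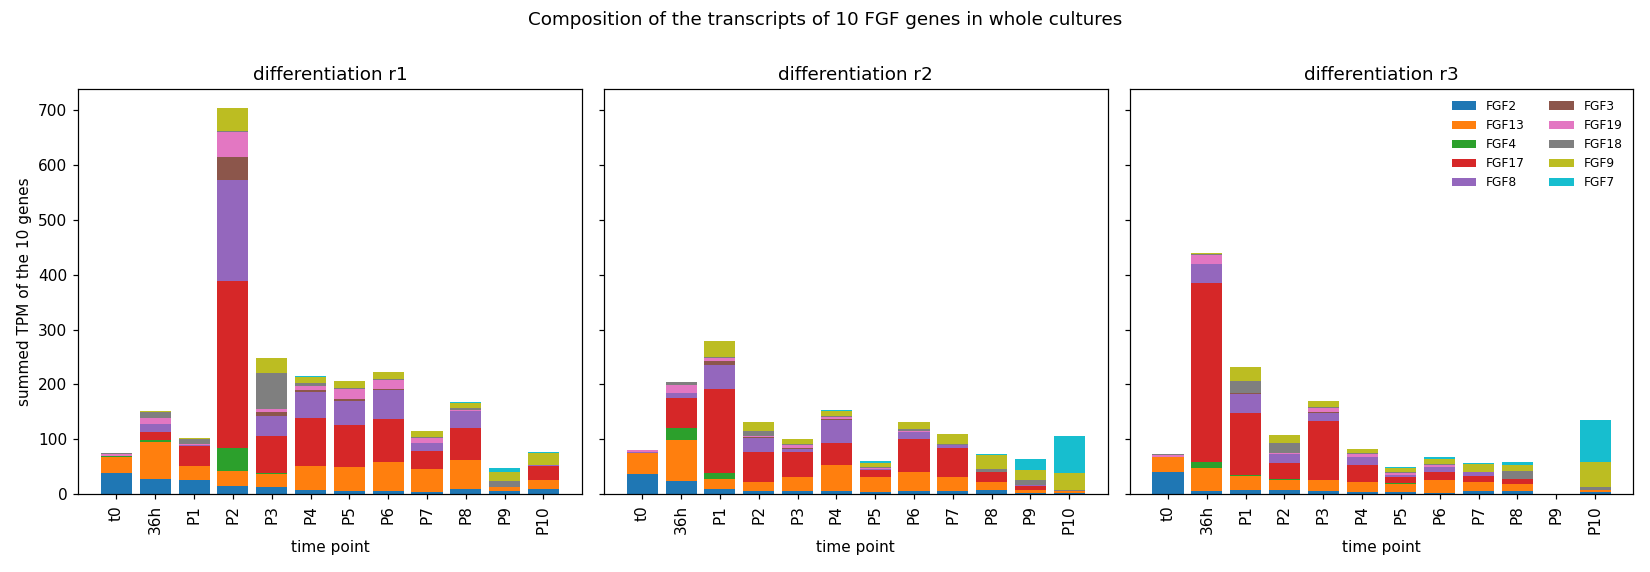
Stacked bars give the TPM of the 10 FGF genes in each whole-culture library, by time point (x axis) and differentiation (1 panel each); P9 of r3 has no bar. The highest bar is P2 in r1 (703.7 TPM), P1 in r2 (279.9 TPM) and 36 h in r3 (439.9 TPM), each with *FGF17* as its largest piece.

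**Figure D2:**
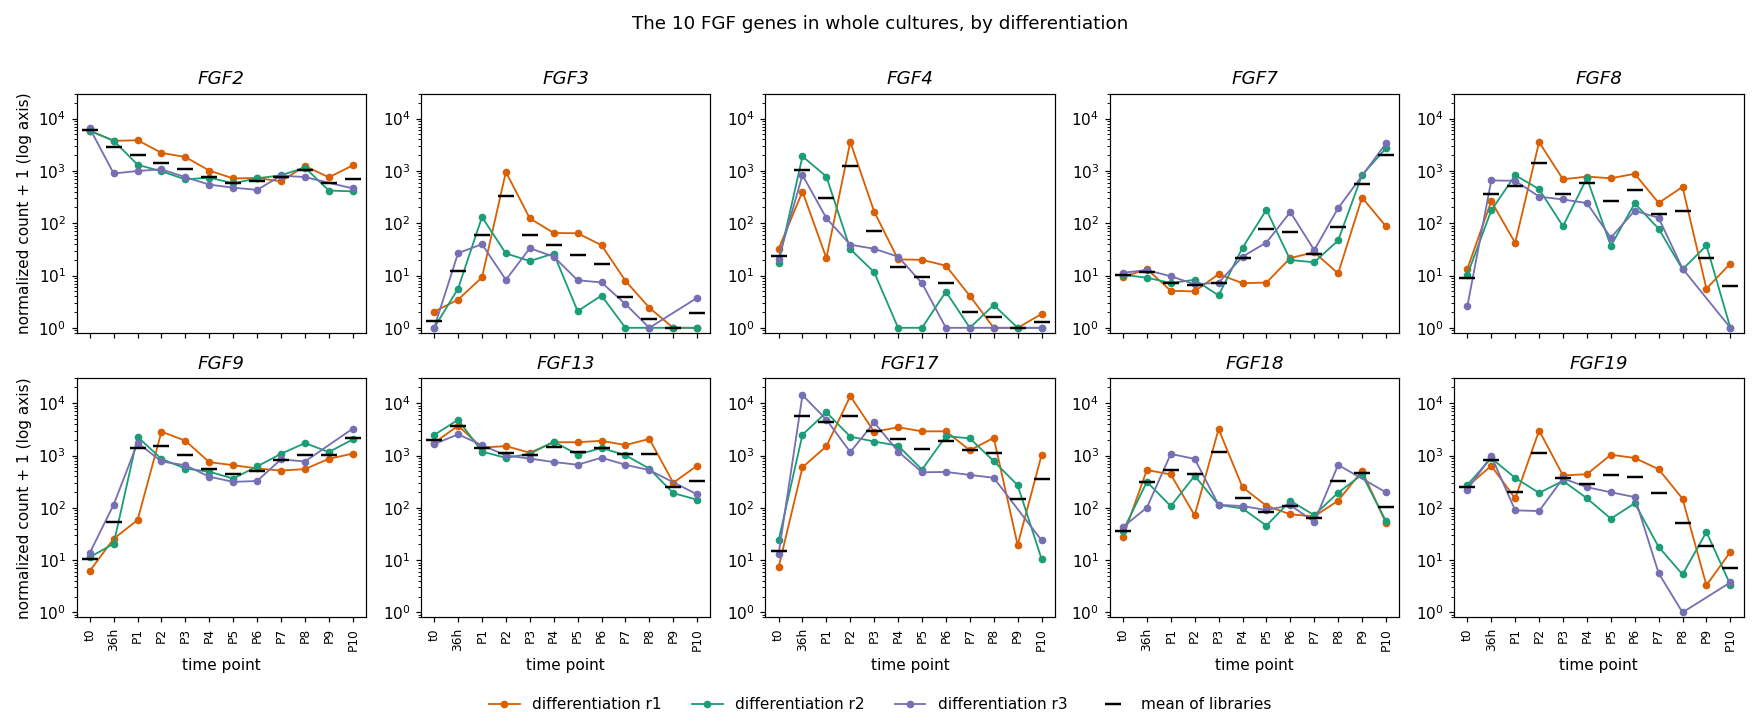
Normalized counts plus 1 (log axis) of each gene over the 12 time points (x axis), with 1 coloured line per differentiation and a black bar for the mean of the libraries. The early peak of *FGF3*, *FGF4*, *FGF8*, *FGF9*, *FGF17* and *FGF19* falls at P2 in r1 and at 36 h or P1 in r2 and r3 (*FGF9* in r3 is highest at P10), and *FGF7* is highest at P9 in r1 and at P10 in r2 and r3.

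Over the 12 time points, 9 of the 10 genes passed the joint edgeR quasi-likelihood test of any change (adjusted p under 0.01 and 100 or more normalized counts on average), where 39.1% of the 21750 genes tested passed. The adjusted p was 7.01e-08 for *FGF7* and 1.74e-06 for *FGF13*, and it was 0.0029 for *FGF19*. *FGF3* had an adjusted p of 1.14e-04 and missed only the minimum mean. Without r2, 4 of the 10 passed (*FGF2*, *FGF4*, *FGF7* and *FGF13*), with 2817 of 22526 genes. Without r3 the same 4 did, with 3529 of 21110 genes. Without the replicate block the adjusted p of *FGF19* was 0.0269. For single steps a gene also had to change by at least 2-fold. The averaged time course had its highest point at t0 or 36 h for 3 genes, *FGF2* (t0), *FGF13* and *FGF17* (36 h). It was highest at P2 for *FGF3*, *FGF4*, *FGF8* and *FGF19*, at P3 for *FGF18* and at P10 for *FGF7* and *FGF9*. The 4 peaks at P2 rest on P2.r1, and without r1 the count with a peak at t0 or 36 h is 5. The 36 h peak of *FGF17* rests on 36h.r3, with 14325 normalized counts against 594.4 in 36h.r1 and 2499 in 36h.r2. Without r3 its averaged peak moves to P2 (13660 in P2.r1 and 2294 in P2.r2), and the count is lower than 3.

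*FGF17* and *FGF8* rose between t0 and 36 h. *FGF17* stood at 6.23, 22.8 and 11.9 normalized counts in t0.r1, t0.r2 and t0.r3 and at 594.4, 2499 and 14325 at 36 h, so that the groups did not overlap and r3 was far the highest. The presomitic markers at 36 h ran in the same order, as did the NMP markers (17744, 58853 and 62447 in r1 to r3). So did the neural crest (2079, 3471 and 9715), endoderm (467, 511 and 784) and neuron markers (8782, 9116 and 9777). The neuron list already stood at 6267 to 7662 at t0, and its median log2 fold change to 36 h was -0.26. The hESC markers (84108, 63190 and 31458) and the pre-neural and neural ones ran in the reverse order. The part of these markers in the rise was not tested. The rise was 9.18 on the log2 scale (SE 1.78, adjusted p = 0.0013). *FGF8* stood at 12.5, 9.33 and 1.59 at t0 and at 261.6, 174.3 and 655.6 at 36 h, again without overlap and with r3 highest, a rise of 6.14 on the log2 scale (SE 1.495, adjusted p = 0.0080). Fitted without the replicate block, *FGF8* had an adjusted p of 0.0322. Without r2 the log2 fold change was 10.2 for *FGF17* (adjusted p = 0.0462) and 7.08 for *FGF8* (adjusted p = 0.0941). Without r3 it was 6.81 (adjusted p = 0.1019) and 4.40 (adjusted p = 0.2729). With only the compared libraries in the fit, *FGF8* had 5.42 (adjusted p = 0.0255), while *FGF17* still passed. *FGF17* and *FGF8* were 2 of 10 members higher, with 0 lower, where 1.33% of all genes tested were higher and 1.37% lower.

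Other members were higher at 36 h in all 3 differentiations without passing. *FGF4*, which hESC lines and the early epiblast are known to express, stood at 31.1, 16.6 and 19.8 at t0 and at 401.6, 1892 and 831.3 at 36 h, a log2 fold change of 5.95 (SE 1.55, adjusted p = 0.0127). Its adjusted p was 0.0070 without r1, 0.1602 without r2, 0.1927 without r3 and 0.0299 without the block. *FGF18* went from between 27.0 and 42.1 to 526.8, 312.8 and 99.96, with the highest value in r1 here (adjusted p = 0.0486). *FGF19* was at 255.4, 273.5 and 221.4 at t0 and at 634.9, 887.7 and 977.1 at 36 h, without overlap, with a log2 fold change of 1.90 (SE 1.16, adjusted p = 0.3197). *FGF13* had the highest value of each differentiation at 36 h, with 3714, 4819 and 2538 against 1738, 2470 and 1647 at t0 (log2 0.89, SE 0.38, adjusted p = 0.1326). *FGF9* was at 24.6, 19.6 and 114.1, against 5.19 to 12.7 at t0 (log2 2.50, adjusted p = 0.1077), and *FGF7* stayed at 8.08 to 12.3, near its t0 values of 8.30 to 10.3. *FGF3* stood at 3 counts or fewer in every t0 library and at 2.46, 4.62 and 25.8 normalized counts at 36 h, where the first is itself within the floor and r3 carries the mean. *FGF2* alone was lower at 36 h in all 3 differentiations, from 5914, 5786 and 6522 to 3752, 3797 and 891.3, with a log2 difference of -1.27 (SE 0.38, adjusted p = 0.0299). The median log2 fold change was 2.87 over the members and 0.0036 over all genes tested.

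Between 36 h and P1, *FGF9* rose, from 24.6, 19.6 and 114.1 normalized counts to 57.5, 2272 and 1751. In r1 the log2 ratio was 1.21, while r2 had 6.82 and r3 had 3.93, and the groups overlapped through P1.r1. The fitted log2 fold change was 4.64 (SE 0.94, adjusted p = 0.0042). It was 3.67 without r2 (adjusted p = 0.2853), 5.62 without r3 (adjusted p = 0.0732) and 4.10 with only the compared libraries in the fit (adjusted p = 0.2637). With *FGF9*, 1 of 10 members was higher and 0 lower, against 0.492% of all genes higher and 0.699% lower. Over the same step the 4 epithelial markers (*CDH1*, *EPCAM*, *CLDN6*, *ESRP1*) went from 20770, 26495 and 12553 to 14416, 3274 and 2380. The hESC list went from 84108, 63190 and 31458 to 45898, 4767 and 4655. As lower, 3 of the 4 epithelial and 1 of the 5 hESC markers passed, and the part of these markers was not tested. *FGF13* stood at 1413, 1190 and 1577, below each 36 h value, without passing (log2 -1.32, SE 0.38, adjusted p = 0.0340). *FGF19* was lower at P1 than at 36 h in each differentiation, at 150.0, 371.9 and 88.4, without overlap of the groups (adjusted p = 0.2972). Among the rest, *FGF4* and *FGF7* were lower and *FGF3* higher at P1 in all 3 differentiations, all with overlap, while *FGF2*, *FGF8*, *FGF17* and *FGF18* differed in direction between them. The adjusted p of these 7 lay between 0.1887 and 0.8090.

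The early peak came at different time points in the differentiations, and r1 differed most. Within r1, 6 of the 10 genes had their highest normalized count at P2, and in r2 and r3 0 did. In r2 and in r3, 7 of the 10 peaked at 36 h or P1, against 1 (*FGF13*) in r1. From P1 to P2, 6 genes were more than 2-fold higher in r1, with log2 ratios of 7.41 for *FGF4*, 6.77 for *FGF3*, 6.42 for *FGF8*, 5.62 for *FGF9*, 4.32 for *FGF19* and 3.18 for *FGF17*. Over the same step these 6 genes had log2 ratios between -4.63 and -0.88 in r2 and between -2.33 and -0.04 in r3. All 6 were therefore higher at P2 than at P1 in r1 and lower in the other differentiations. *FGF18* went the other way, by -2.61 in r1 and by 1.93 in r2, but had -0.31 in r3, where the 6 genes were lower too. In P2.r1 *FGF3* reached 953.4 normalized counts, while its highest value was 130.2 in r2 (P1) and 38.7 in r3 (P1). *FGF8* reached 3554 in P2.r1, 826.9 in P1.r2 and 655.6 in 36h.r3. *FGF4* reached 3571 in P2.r1, 1892 in 36h.r2 and 831.3 in 36h.r3. *FGF17* was at similar heights in r1 (13660, P2) and r3 (14325, 36 h) and lower in r2 (6692, P1). Only *FGF2* and *FGF13* had the same peak time point in all 3 differentiations, and r2 and r3 shared the peak for 6 genes. The distance between the highest and lowest library of a time point, as a median over the 10 genes, was 0.76 on the log2 scale at t0, 2.74 at P1 and 3.51 at P2.

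**Figure D3:**
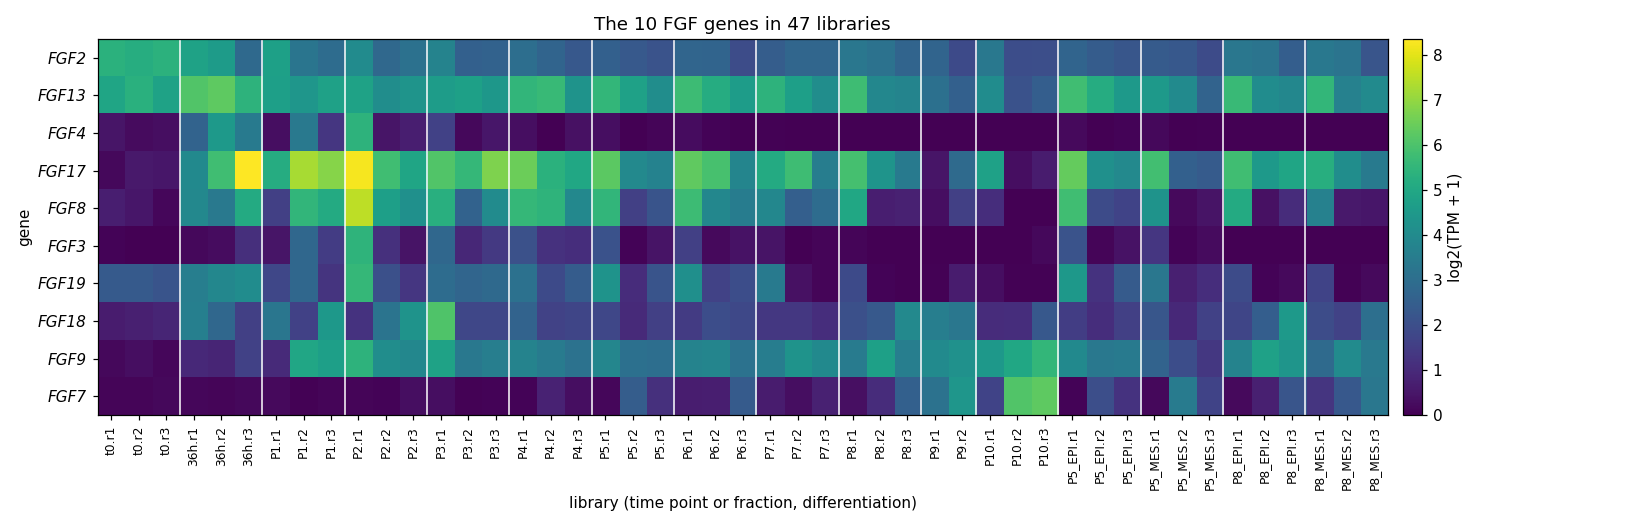
Each cell gives log2(TPM + 1) of a gene (y axis) in 1 of the 47 libraries (x axis, ordered by time point or fraction and then by differentiation, white lines between groups). *FGF17* reaches 305.0 TPM in P2.r1 and 327.7 TPM in 36h.r3, *FGF2* is brightest at t0, and *FGF7* in P10.r2 (67.8 TPM) and P10.r3 (77.8 TPM).

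Between P1 and P8, 3 steps were tested (P1 to P3, P3 to P5 and P5 to P8), and no member passed any of them. The other time points entered only the joint test. From P1 to P3, 0 of 10 passed, against 0.634% of all genes higher and 0.46% lower, with 2 members and 4583 of the 21750 genes at an unadjusted p under 0.05 and 0 members and 530 genes by DESeq2. From P3 to P5, 0 of 10 passed, against 0.0092% of all genes higher and 0.0046% lower, with 2 members and 1545 genes at an unadjusted p under 0.05 and 1 member and 58 genes by DESeq2. From P5 to P8, 0 of 10 passed, where 0.0046% of all genes passed in each direction, with 3 members and 2892 genes at an unadjusted p under 0.05 and 0 members and 154 genes by DESeq2. *FGF18* had its highest value in P3.r1, with 3197 normalized counts against 112.7 in P3.r2 and 113.1 in P3.r3, and it was at 108.2, 44.6 and 89.5 at P5. The presomitic markers were high in the same library (9855 against 282 and 687), and their part was not tested. It was lower at P5 in all 3 differentiations without overlap, with a log2 difference of -3.74 (SE 1.09, adjusted p = 0.2641), which was -0.83 without r1. At P8 it was back at 135.5, 193.8 and 659.6, each above every P5 value.

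At P8 the genes of the early peak stood at different levels. *FGF4* was at 20.5 normalized counts in P1.r1, 779.8 in P1.r2 and 123.9 in P1.r3 and at or under 3 counts in every library of P8, P9 and P10. *FGF3* was likewise at or under 3 counts in all libraries of P8 to P10, and its P5 mean of 23.8 was at least 9.08-fold higher than the floor at P8, although P5.r1 stood at 63.2 against 1.09 in P5.r2 and 7.12 in P5.r3. *FGF19* stood at 1033, 60.9 and 197.3 at P5 and at 148.3, 4.33 and 0 at P8, lower in each differentiation without passing (log2 -3.54, adjusted p = 0.2043). *FGF8* lasted longest in r1, with 493.1 in P8.r1 against 12.1 and 12.5 in P8.r2 and P8.r3. *FGF17* was still at 2176, 778.6 and 374.2 at P8, in the order r1, r2, r3. In P5 whole cultures r1 had the highest value of 9 of the 10 genes, all but *FGF7*. *FGF2* was low at P5, at 716.4, 576.5 and 476.9, and was higher in each differentiation at P8, at 1240, 1156 and 762.0, without overlap (log2 0.80, SE 0.38, adjusted p = 0.3608).

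At P9 and P10 *FGF13* fell and *FGF7* was at its highest. *FGF13* stood at 2074, 558.0 and 524.7 normalized counts at P8. It was at 300.1 and 189.9 in P9.r1 and P9.r2 and at 637.9, 141.9 and 179.3 at P10, lower in every differentiation, although P10.r1 overlapped P8.r2 and P8.r3. The log2 difference was -1.94 (SE 0.34, adjusted p = 0.0021). The adjusted p was 0.0240 without the block, 0.0841 without r2, 0.0946 without r3 and 0.2279 with only the compared libraries in the fit. With *FGF13*, 0 of 10 members were higher and 1 lower, against 0.772% and 0.474% of all genes. Markers differed over the same step. The pre-neural and neural list was at 6214 to 19294 at P8 and at 720 and 1167 at P9, the NMP list at 2728 to 15101 and at 529 and 791, and the neural crest list at 6388 to 46813 and at 51083 and 53382. At P10 the pre-neural and neural list was at 12581 in r1, within the P8 range, and at 246 and 139 in r2 and r3, and the NMP and neural crest lists likewise set P10.r1 apart, as given above. The neuron list was at 7444 to 9151 at P8, at 5105 and 19628 at P9 and at 11956 to 18468 at P10. The epithelial list was at 323 to 910, at 132 and 144 and at 130 to 504 in the same order. At an adjusted p under 0.05, 3 of the 6 pre-neural and neural markers were lower and 3 of the 8 neural crest markers higher at P9 and P10. Of the NMP and the epithelial markers 1 each was lower. The part of these markers in the changes of the members was not tested. *FGF7* went from 9.93, 45.9 and 193.4 at P8 to 308.1 and 834.6 at P9 and to 86.1, 2704 and 3353 at P10, where r1 lay far under the others. Its log2 fold change was 4.05 (SE 0.94) with an adjusted p of 0.0101, just over the threshold. The adjusted p was 9.32e-04 without P10.r1 and 3.13e-05 with DESeq2, but 0.0442 without the block, 0.1811 without r2, 0.1147 without r3 and 0.2279 with only the compared libraries in the fit. *FGF9* was at 863 and 1163 at P9 and at 1085, 2030 and 3263 at P10, the highest mean of its course, although r1 and r2 had been higher at P2 and P1 (log2 0.55, SE 0.72, adjusted p = 0.6860). *FGF8* was at 4.60 and 36.6 at P9 and at 15.9, 0 and 0 at P10 (log2 -3.12, SE 1.16, adjusted p = 0.0861). *FGF17* went from the P8 values above to 18.4 and 269.1 at P9, and at P10 it was at 9.54 in r2 and 22.9 in r3 but at 1017 in r1 (log2 -2.32, SE 1.08, adjusted p = 0.1739). P10.r1 thus lay within the range of the P8 libraries for *FGF17*, *FGF13* and *FGF7*, and it is the library with the high NMP markers given above.

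In the order of the time-point means, most neighbours did not differ beyond their spread. Of the 11 steps between neighbours in that order, the ranges of the libraries overlapped in all 11 for *FGF3*, *FGF4*, *FGF17* and *FGF19*, in 10 for *FGF2*, *FGF7*, *FGF8* and *FGF18* and in 9 for *FGF9* and *FGF13*. The steps without overlap were *FGF2* between t0 and 36 h, *FGF7* between P9 and P8, *FGF8* between P7 and P9, and *FGF18* between P7 and t0. For *FGF9* they lay between P5 and 36 h and between 36 h and t0, and for *FGF13* between 36 h and t0 and between P3 and P10.

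In the fractions of P5, *FGF2*, *FGF8*, *FGF9*, *FGF13*, *FGF17* and *FGF19* were lower in the mesenchymal than in the epithelial fraction of all 3 differentiations, and *FGF7* was higher in all 3, but no difference passed the test. The labels were checked with markers. The neural crest list summed to 19144 to 33200 normalized counts in P5 MES and to 3554 to 13334 in P5 EPI, while at P8 the ranges overlapped (13092 to 59249 and 5450 to 44289), and in r2 the P8 fractions were nearly level (21269 and 21771). The 6 pre-neural and neural markers summed to 10591 to 17479 in P5 EPI and to 2040 to 6110 in P5 MES, and to 7068 to 18659 and 2677 to 11819 at P8. The epithelial list (*CDH1*, *EPCAM*, *CLDN6*, *ESRP1*) was low in all fractions, at 34.8 to 945 normalized counts against 42666 or more at t0. At P5 the ranges of EPI (137 to 246) and MES (34.8 to 170) overlapped, but MES was lower in every pair. The pairs stood at 196 and 134 in r1, 246 and 170 in r2 and 137 and 34.8 in r3. Of the 4 genes 1 was lower in MES at an adjusted p under 0.05. Other lists also lay apart at P5, with the NMP markers at 13695 to 19944 in EPI and 2624 to 7824 in MES, the neuron markers at 7563 to 11679 and 3142 to 6410, and the hESC markers at 637 to 1284 and 1371 to 2520. Several members thus lay to one side in every P5 pair, without passing, and these lists did so too. By these sums the neural crest and hESC lists were higher and the others lower in MES. A sum follows its most abundant genes. The median log2 fold change over the genes tested went the other way for the hESC list (-0.58) and the neuron list (0.36). The part of these cells in the values of the members was not tested. *FGF8* stood at 884.1, 40.4 and 33.3 in P5 EPI and at 316.0, 1.94 and 6.77 in P5 MES, lower in each pair but with a high r1 in both fractions. The log2 difference was -2.26 (SE 0.47, adjusted p = 0.0300). *FGF13* stood at 2113, 1358 and 904.5 against 874.1, 600.0 and 232.2, without overlap (log2 -1.43, SE 0.29, adjusted p = 0.0275). *FGF19* stood at 1195, 72.9 and 240.4 against 495.1, 37.9 and 65.8 (log2 -1.39, SE 0.35, adjusted p = 0.0496). *FGF9* stood at 687.8, 425.4 and 424.6 against 271.0, 151.7 and 100.6, without overlap (log2 -1.56, SE 0.51, adjusted p = 0.0969). *FGF17* stood at 3210, 659.9 and 544.8 against 2116, 188.6 and 174.2 (adjusted p = 0.1674). *FGF7* stood at 6.24, 111.7 and 47.4 in EPI and at 10.8, 388.0 and 81.3 in MES, higher in MES in each pair, although r2 lay far above the others in both fractions (log2 1.39, SE 0.85, adjusted p = 0.3468). The paper that reported these data names *FGF7*, with *FGF8*, *FGF9*, *FGF12* and *FGF13*, as significantly higher in the epithelial cells. That call used DESeq2, at thresholds like those used here. For *FGF7* the direction of the edgeR estimate found here is the other one, and *FGF7* passed with neither edgeR nor DESeq2. *FGF18* stood at 85.3, 49.9 and 88.6 in EPI and at 165.6, 43.8 and 95.8 in MES, higher in MES in 2 of 3 (log2 0.45, SE 0.64, adjusted p = 0.7089).

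None of the 8 members tested between the P5 fractions passed at an adjusted p under 0.01, where 0% of the 18885 genes tested passed in either direction with edgeR. With DESeq2, 677 genes passed, *FGF8* and *FGF13* among them, and 5 members and 4894 genes had an unadjusted edgeR p under 0.05. At an adjusted edgeR p under 0.05 with the same fold and mean minimum, 3 members (*FGF8*, *FGF13* and *FGF19*) were lower in MES and 0 higher, against 1.3% of all genes lower and 1.37% higher. *FGF3* and *FGF4* had too few counts to be tested in the fractions. *FGF3* stood at 67.3 in P5 EPI and 28.8 in P5 MES of r1 and at no more than 6.14 in the other P5 fractions, and both genes were at or under 3 counts in all P8 fractions.

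**Figure D4:**
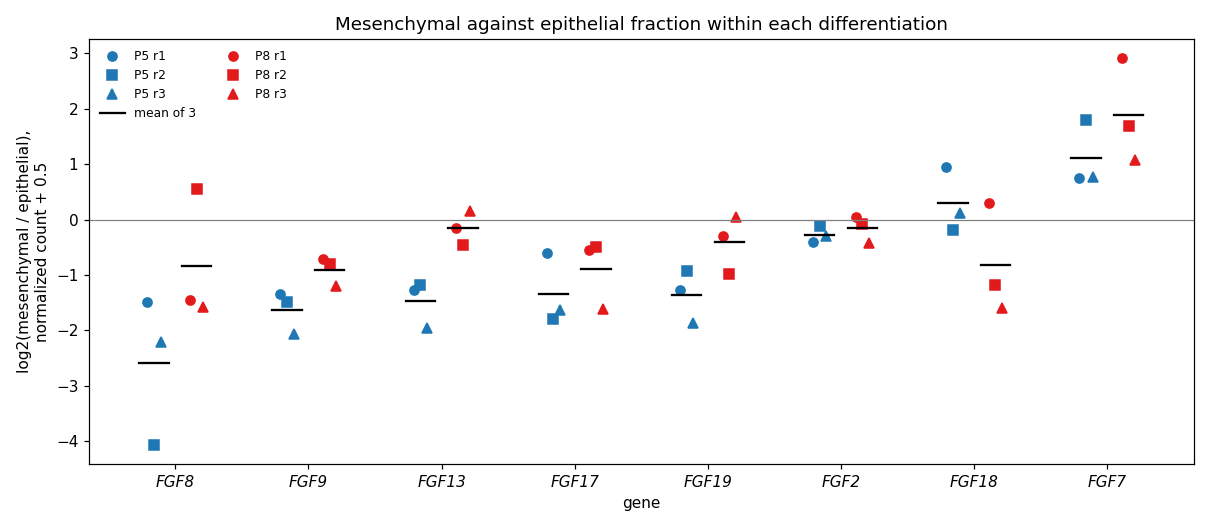
Each symbol gives the log2 ratio of the mesenchymal to the epithelial fraction of 1 differentiation (normalized counts plus 0.5) for 8 genes (x axis), at P5 in blue and P8 in red, with a black line at the mean of 3. At P5, *FGF8*, *FGF9*, *FGF13*, *FGF17*, *FGF19* and *FGF2* lie below 0 in all 3 differentiations and *FGF7* lies above; at P8, *FGF9* and *FGF17* are still below 0 and *FGF7* above 0 in all 3.

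At P8 the fractions lay closer together for several genes. *FGF13* was at 1970, 672.2 and 527.4 in EPI and at 1774, 486.5 and 589.3 in MES, with a mean log2 ratio within differentiations of -0.15 ± 0.31 (SD, n = 3) against -1.47 ± 0.43 at P5. *FGF19* had -0.41 ± 0.52 at P8 and -1.36 ± 0.47 at P5, and *FGF8* had -0.83 ± 1.19 and -2.59 ± 1.33. The P5 mean of *FGF8* leans on r2, whose ratio of -4.06 rests on 2 counts in MES, within the depth floor. The P5 ratios of r1 and r3 were -1.48 and -2.22. *FGF9* (-0.91 ± 0.26) and *FGF17* (-0.89 ± 0.63) stayed lower in MES in all 3 differentiations, and *FGF7* (1.90 ± 0.93) stayed higher. *FGF18* had a ratio of -0.82 ± 1.00, with 1022 in EPI and 337.5 in MES of r3 but 105.3 and 129.9 in r1. With edgeR 0 of the 8 members passed at P8, 0 had an unadjusted p under 0.05 and 0 passed with DESeq2, where 0% of all genes passed in either direction with edgeR and 54 genes with DESeq2. The change in the fraction difference between P5 and P8 was tested as an interaction, which 0 of the 8 members passed with either tool and 0% of all genes passed with edgeR (1152 at an unadjusted p under 0.05, and 1 gene by DESeq2). *FGF13*, with an interaction of 1.31 on the log2 scale (SE 0.40), was the 1 member at an unadjusted p under 0.05 and had an adjusted p of 0.8158.

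Within the epithelial fraction *FGF19* fell between P5 and P8, from 1195, 72.9 and 240.4 to 155.1, 4.11 and 9.28 normalized counts. Each differentiation was lower at P8 although the ranges overlapped through r1, and the log2 difference was -3.76 (SE 0.40, adjusted p = 0.0071). The adjusted p was 0.2932 without the block, 0.1963 without r2 and 0.0940 without r3, and without r1 it was 0.0050 but the mean fell under the minimum. *FGF19* also did not pass with all 47 libraries in 1 fit or with only the compared libraries in the fit. Over the same step the NMP list went from 19944, 16813 and 13695 to 14475, 6754 and 3784, and the neural crest list from 3554, 7115 and 13334 to 5450, 21771 and 44289. The hESC list was lower at P8 in each pair (637 to 1284 at P5 and 117 to 411 at P8) and the epithelial list higher (137 to 246 and 216 to 945), and the part of these markers was not tested. The fall of *FGF19* made 0 of 8 members higher and 1 lower, against 0.228% of all genes higher and 0.0318% lower. Within the mesenchymal fraction *FGF19* went from 495.1, 37.9 and 65.8 to 125.7, 1.84 and 9.64 (log2 -2.59, SE 0.41, adjusted p = 0.0117) and no member passed (0 of 8), against 0.582% of all genes higher and 0.116% lower. There 3 members and 5882 of the 18885 genes had an unadjusted p under 0.05, and 2 members (*FGF9* and *FGF19*) and 752 genes passed by DESeq2. *FGF18* in the epithelial fraction was higher at P8 in each differentiation, at 105.3, 225.8 and 1022 against 85.3, 49.9 and 88.6, without overlap, and did not pass with edgeR (log2 2.24, SE 0.66, adjusted p = 0.0643), while it did with DESeq2. *FGF9* in the mesenchymal fraction was at 271.0, 151.7 and 100.6 at P5 and at 352.2, 980.4 and 525.0 at P8, without overlap (log2 1.75, SE 0.53, adjusted p = 0.0647). *FGF2* was higher at P8 than at P5 in all 3 differentiations in EPI (log2 0.69, SE 0.17, adjusted p = 0.0444) and in MES (log2 0.83, SE 0.18, adjusted p = 0.0250), in both under 2-fold.

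Across the 35 whole cultures *FGF8* and *FGF17* had the courses most like each other. These libraries share their differentiation, their medium and neighbouring time points, so the coefficients describe the courses and are not tests. Pearson's r of log2(normalized count + 1) was 0.87 for *FGF8* and *FGF17* (Spearman's rho 0.86), and it was between 0.84 and 0.92 within each of the 3 differentiations. It was 0.79 for *FGF3* and *FGF8*, 0.69 for *FGF3* and *FGF17* and 0.70 for *FGF8* and *FGF19*. Among the neighbours on chromosome 11, r was 0.72 for *FGF4* and *FGF19*, 0.68 for *FGF3* and *FGF19* and 0.65 for *FGF3* and *FGF4*. Other pairs of the early peak were less alike, with 0.45 for *FGF4* and *FGF17*, 0.50 for *FGF17* and *FGF19* and 0.53 for *FGF4* and *FGF8*, and *FGF9* had -0.26 with *FGF4* and -0.36 with *FGF19*. *FGF13* and *FGF19* had 0.76. *FGF7* had -0.80 with *FGF13* and -0.72 with *FGF19*, but 0.33 with *FGF9* and -0.04 with *FGF18*, and *FGF2* and *FGF9* had -0.72 by Pearson's r but -0.22 by Spearman's rho. For *FGF18*, Pearson's r over the 35 cultures lay between -0.10 and 0.27 with every other member.

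**Figure D5:**
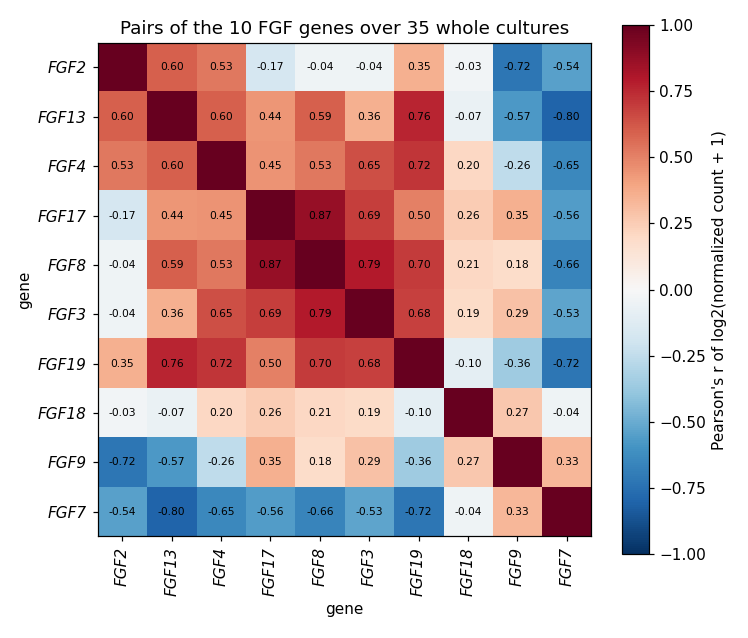
Pearson's r between pairs of the 10 genes (both axes) over the 35 whole cultures, in colour from -1 to 1 and as numbers. *FGF8* and *FGF17* have the highest value (0.87) and *FGF7* and *FGF13* the lowest (-0.80), and the row of *FGF18* stays between -0.10 and 0.27.

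Over all 47 libraries, the gene most like each member was sought among genes that averaged 100 or more normalized counts. *FGF4* was most like *TBX6* (r = 0.91), a transcription factor of the presomitic mesoderm that is also on the marker list above, followed by *RSPO3* (0.88), which strengthens WNT signalling. *FGF3* was most like *TUBGCP5* (0.83) and *FGF8* most like *HOXB1* (0.83), with *FGF17* as the third (0.83). *FGF17* was most like *DMTN* (0.90), its neighbour on the chromosome, then *GAD1* (0.89) and *EDAR* (0.88). *FGF7* was most like *CCL2* (0.93), which encodes a chemokine, *PPEF1* (0.92) and *PTGS2* (0.90), the inducible cyclooxygenase. *FGF2* was most like *RRM2B* (0.93), *FGF9* like *ARHGAP24* (0.92), *FGF13* like *HDDC3* (0.89) and *FGF19* like *MIPEP* (0.88). For *FGF18* the closest gene was *TGFB1*, at only 0.69.

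The other genes of the pathway, listed by name, passed in few steps, and the joint test of any change was passed by 39.1% of all genes. Of 12 other FGF genes 10 could be tested over time, and *FGF10*, *FGF11* and *FGF12* passed the joint test, while 0 passed a step between the compared time points. *FGF10*, a mesenchymal ligand of the *FGF7* subfamily, was the highest of these 12 at P1 of r2 (65.6 TPM) and r3 (70.6 TPM), when *FGF17* stood at 154.6 and 112.8 TPM, and it fell in the mesenchymal fraction from P5 to P8 (log2 -3.46, SE 0.40, adjusted p = 0.0060), where 0.116% of all genes did. Of 7 receptors and cofactors 6 were tested, and 4 (*FGFR1* to *FGFR4*) passed the joint test. *FGFR3* (log2 -2.69, SE 0.50, adjusted p = 0.0024) and *FGFR4* (-1.81, SE 0.38, adjusted p = 0.0061) fell from P1 to P3, where 0.46% of all genes did. *FGFR1* was the most abundant receptor, with a mean of 333.1 TPM at t0 and 125.2 TPM at P2, its lowest point. Of 13 targets and feedback inhibitors all were tested and 7 passed the joint test. At 36 h their median log2 fold change was -0.20, and 2 were higher and 2 lower at an adjusted p under 0.05. *SPRED2* (1.83, SE 0.19, adjusted p = 7.04e-07) and *IL17RD* (1.64, SE 0.35, adjusted p = 0.0029), both inhibitors of signalling through RAS and MAPK, rose at 36 h, as did 1.33% of all genes, while *SPRY4* stood at 8486 ± 3911 normalized counts (SD, n = 3) against 10597 ± 79.8 at t0 and did not pass. Of 3 ligand carriers *FGFBP3* fell at P9 and P10 (log2 -3.87, SE 0.62, adjusted p = 0.0013), as did 0.474% of all genes.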

How the data were processed

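RNA-seq reads (75 bp, single end, polyA-selected) were processed by the authors, whose processing notes name cutadapt 1.16, STAR 2.5.2b, RSEM 1.3.0 and GRCh38. The authors deposited for each library and gene an expected count, an estimate that shares out ambiguous reads and need not be whole (9.33% of values were not), and TPM, which RSEM scales by effective length and library. The annotation release, the strand setting and read filters are not given in the sources used here. Of 58051 Ensembl identifiers, 57447 matched GENCODE 29, and all 10 members did.

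Expected counts were rounded. Tests used edgeR 4.0.16 (glmQLFit, glmQLFTest, limma 3.58.1, R 4.3.3) with TMM factors, filterByExpr and Benjamini-Hochberg adjustment over all genes tested, 21750 in the 35 whole cultures and 18885 in the 12 fractions, each set sharing 1 fit. A gene passed at an adjusted p under 0.01, a change of 2-fold or more and an average of 100 or more normalized counts in the libraries compared. The replicate number entered as a block, because the series' description runs each experiment through all time points. Same-numbered libraries deviated together in the fractions (mean correlation 0.649 at P5 and 0.777 at P8 over 13297 genes) and less so in whole cultures (-0.007 for t0 with 36 h to 0.307 for P5 with P8). A fold against a group at 3 counts or fewer in every library is a lower bound against that floor, averaged over the group. Reads had no molecular identifiers, so this limit covers counting error only. No pair of replicates differed by as little as sampling noise (chi-square per degree of freedom 25.4 or more in 46 pairs), so each library is 1 sample. The fit was tested on simulated data. Alternatives were DESeq2 1.42.0, no block, other size factors, filters, thresholds and libraries. Members, gene lists and tests were chosen with earlier results of these data known. The rule took all members, though in steps without a call some are counted without values; of the other pathway genes, those that passed, at most 3 a list, and for each member the 3 genes with the highest Pearson's r. *SPRY4* and *FGFR1* were named after their values were seen.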

Additional observations from a re-analysis of the deposited data

How the results depend on the processing

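Of the 18 fold changes and tests of single members followed through the alternatives, 0 reversed. From t0 to 36 h, 2 members passed, against 1 without the replicate block or with only the compared libraries in the fit and 5 with DESeq2 or at an adjusted p under 0.05, and leaving out a replicate gave 0 to 3. From 36 h to P1, 1 passed, against 0 with only the compared libraries, 2 with DESeq2 or at 0.05 and 0 to 1 without a replicate. From P3 to P5 DESeq2 passed 1 (*FGF18*), against 0. At P9 and P10 against P8, 1 passed, against 0 without the block or with only the compared libraries, 2 with DESeq2, with its size factors within edgeR, at 0.05, with all 47 libraries in 1 fit or without P10 replicate 1, and 0 to 2 without a replicate. The joint test passed 9, and 4 to 9 without a replicate. Between the P5 fractions 0 passed, against 3 at 0.05 and 2 with DESeq2. In the epithelial fraction, 1 passed from P5 to P8, against 0 without the block, with all 47 libraries or with only the compared ones, 2 with DESeq2 and 0 to 2 without a replicate. In the mesenchymal fraction, 0 passed, against 1 at 0.05 or without the filter on low counts, 2 with DESeq2 and 0 to 1 without a replicate. The count of members with an averaged peak at t0 or 36 h was 3, and it was 5 without r1. Without r3 it was lower than 3, because the averaged peak of *FGF17* moved from 36 h to P2. With 2 differentiations left, calls were lost whenever r2 or r3 was left out, except in the joint test for *FGF2*, *FGF4*, *FGF7* and *FGF13*. Without the block the joint test passed 8, with *FGF19* lost, and the other calls lost without the block are those counted above (*FGF8* at 36 h, *FGF13* at P9 and P10 and *FGF19* in the epithelial fraction).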
